A study of Homo sapiens with 8 samples.

Results

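Aminoacyl-tRNA synthetases are the enzymes that join each amino acid to its transfer RNA, and so supply the ribosome with charged tRNAs. Most amino acids are served by a cytosolic enzyme and by a separate mitochondrial enzyme, and both kinds are encoded in the nucleus. Several cytosolic enzymes are held in a multisynthetase complex by scaffold proteins, among them the products of AIMP1 and AIMP2. The genes followed here were a fixed list of 37 of the 63568 genes in the deposited count table: 19 cytosolic synthetase genes, 16 mitochondrial synthetase genes and the 2 scaffold genes. The list was taken by name and not by measured values, and all 37 genes were found in the table. GARS1 and KARS1, whose products serve both compartments, were counted as cytosolic.

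The measurements came from MIAPaCa-2, an established human pancreatic carcinoma cell line, in which a short hairpin RNA (shRNA) was either a control or directed at METTL3, whose protein deposits N6-methyladenosine (m6A) on mRNA. For each of these conditions the series held an input library of fragmented total RNA and an m6A library precipitated with an anti-m6A antibody, each read on 2 lanes, and the lanes were summed here to 1 library. The comparison asks which transcripts depend on METTL3 for their level or their methylation. There was 1 library of each kind per condition, so no difference between conditions has a replicate check and none was tested.

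The summed inputs held 3237968 reads for the control and 1833005 for METTL3-KD cells. Genes with any read numbered 2730 in the control and 10463 in METTL3-KD cells. Reads per gene clustered at multiples of a lower mode of 509 reads in the control input and 17.3 reads in the METTL3-KD input. Reads divided by this mode are called read equivalents below, and an interval on read equivalents covers counting error only, since copies of 1 molecule cannot be told from separate molecules. METTL3 itself had 0 reads in all 4 input lanes, so the knockdown could not be checked. If each read came from its own molecule, a count of 0 would allow up to 3 reads. That is 0.927 CPM (reads scaled to library size) in the control and 1.64 CPM in METTL3-KD cells. Because reads came in multiples of the lower mode, a count of 0 allows levels well above these values, most of all in the control. The epithelial keratin genes KRT8 and KRT18 and VIM, which this line is known to express, were read in both inputs, whereas EPCAM was at 0 and KRT19 had 1 control and 201 METTL3-KD reads. Of the 3 genes of other cell types that were found, PTPRC and COL1A1 were at 0 and COL1A2 had 1804 control and 353 METTL3-KD reads.

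Few synthetase mRNAs were seen in the control input, and most were seen in the METTL3-KD input. At least 10 reads were counted for 7 of the 37 genes (18.9%) in the control, against 8.8% of all protein-coding genes of the table. In the METTL3-KD input 33 of 37 genes (89.2%) reached 10 reads, against 37.4% of protein-coding genes. Among the 33 genes seen in METTL3-KD cells, 6 (18.2%) were also seen in the control, close to the 20.3% of all protein-coding genes with at least 10 METTL3-KD reads. All 19 cytosolic genes were seen in METTL3-KD cells and 5 in the control. Of the 16 mitochondrial genes, 12 were seen in METTL3-KD cells and 2 in the control. AIMP1 and AIMP2 were seen only in METTL3-KD cells, with 21 and 91 reads. FARS2, HARS2 and PARS2, the mitochondrial enzymes for phenylalanine, histidine and proline, had 0 reads in all 4 lanes, and TARS2 had 2 reads in METTL3-KD cells.

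**Figure D1:**
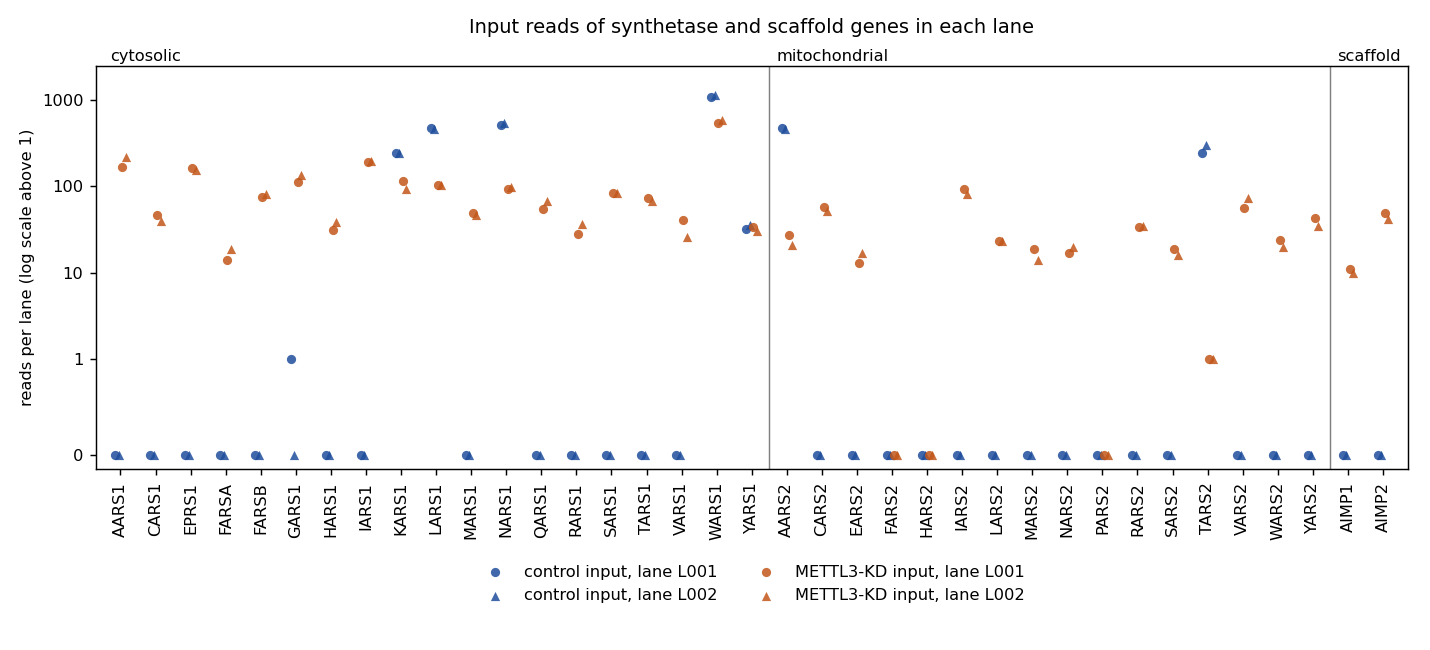
Reads of each synthetase and scaffold gene in the 4 input lanes, on a vertical axis that is logarithmic above 1 read. Circles and triangles are the lanes L001 and L002, blue the control and orange METTL3-KD. Control points lie at 0 for 29 of the 37 genes, while METTL3-KD points lie at 0 for 3 genes.

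WARS1, which charges tryptophan and is known to be induced by interferon, had the most reads of any member in both inputs. WARS1 (ENSG00000140105.13, chromosome 14, 100800127 to 100843142 on hg19) had 1083 and 1145 control reads on its lanes and 546 and 582 METTL3-KD reads. These are 4.37 and 65.1 read equivalents. Its level per length was 261 RPKM, reads per kb of mRNA scaled to a common library size, in the control and 233 RPKM in METTL3-KD cells, where it ranked 150 of 7248 protein-coding genes. RPKM scales by total reads. The log2 ratio, METTL3-KD over control, is scaled by TMM, a factor set by the bulk of genes read in both inputs. Over the 1871 genes with at least 10 reads in each input its median was -0.61, so such genes did not centre on 0. For WARS1 the log2 ratio was 1.21 (95% exact interval on read equivalents -0.09 to 3.26). By total counts it was -0.16, so its direction turned with the scaling.

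The other cytosolic genes seen in both inputs also differed by less than their counting error. KARS1, the lysine enzyme (ENSG00000065427.10, chromosome 16, 75661372 to 75682541), had 244 and 246 control reads and 116 and 93 METTL3-KD reads, with a log2 ratio of 0.96 (interval -1.86 to 6.32). LARS1, the leucine enzyme (ENSG00000133706.13, chromosome 5, 145490129 to 145562259), had 471 and 456 control reads and 104 and 103 METTL3-KD reads, with a log2 ratio of 0.03 (interval -2.27 to 3.10). The ratio of NARS1, the asparagine enzyme (ENSG00000134440.7, chromosome 18, 55267888 to 55289445), was -0.27 (interval -2.42 to 2.99), from 519 and 535 control reads and 94 and 97 METTL3-KD reads. By total counts the log2 ratios were -0.41 for KARS1, -1.34 for LARS1 and -1.64 for NARS1, so for KARS1 and LARS1 the direction turned with the scaling. The control counts amount to about 1 or 2 read equivalents per gene (0.962 for KARS1, 1.82 for LARS1 and 2.07 for NARS1), and all 3 intervals include no difference. YARS1, the tyrosine enzyme, had 32 and 36 control reads and 34 and 30 METTL3-KD reads. Its log2 ratio of 2.05 lay just past the threshold of 2, although its control count was only 0.134 of a read equivalent, and by total counts it was 0.71.

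A log2 ratio under -2 was found for AARS2 and TARS2, both mitochondrial, which is 2 of 34 members tested (5.88%) against 7.37% of all genes tested. AARS2, the mitochondrial alanine enzyme (ENSG00000124608.4, chromosome 6, 44266468 to 44281084), had 469 and 456 control reads and 27 and 21 METTL3-KD reads. Its log2 ratio was -2.06, with an interval from -5.23 to 1.48 that includes no difference. With DESeq2 size factors or a prior count of 10, and in 3 of 4 analyses that left out a lane, it was not past -2. TARS2, the mitochondrial threonine enzyme (ENSG00000143374.10, chromosome 1, 150459890 to 150480078), had 244 and 302 control reads and 1 read in each METTL3-KD lane. Its log2 ratio was -5.47. Its control reads amounted to 1.07 read equivalents and its METTL3-KD reads to 0.115, and the interval on equivalents had an upper limit of 2.60 and no lower limit, so it includes no difference.

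Over all 34 members with at least 10 reads in the summed inputs, 28 (82.4%) had a log2 ratio above 2, against 79.1% of all 9931 genes tested. Of the 6 members with at least 10 reads in each input, 1 (YARS1) lay above 2 and 1 (AARS2) under -2, where 7.8% and 21.3% of 1871 such genes did. Among all members tested, the shares past 2 in either direction were close to those of all genes. Of the 34 members tested, 26 had 0 control reads (74.3% of all genes tested also had 0), so passing the filter through the METTL3-KD input alone left no other direction for them. The median log2 ratio was 6.93 for the 19 cytosolic genes and 5.96 for the 13 mitochondrial genes tested, against 5.60 for all genes tested. These medians depend on the prior count that stands in for 0 control reads.

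**Figure D2:**
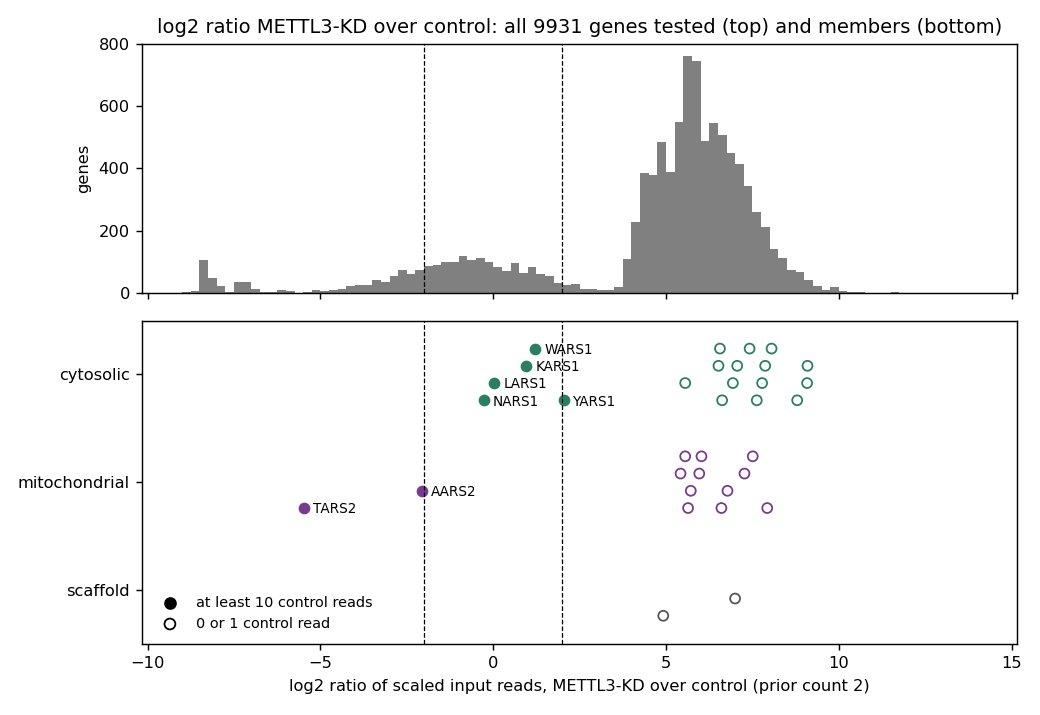
Log2 ratio of scaled input reads, METTL3-KD over control, as a histogram of all 9931 genes tested (top, number of genes) and as 1 point per member in 3 rows by class (bottom), with dashed lines at -2 and 2. Filled points are the 7 members with at least 10 control reads, between -5.47 and 2.05, and open points are members with 0 or 1 control read, all at 4.92 or higher.

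The members without control reads had most METTL3-KD reads among the cytosolic enzymes. IARS1, the isoleucine enzyme, had 193 and 198 METTL3-KD reads on its lanes, AARS1, the alanine enzyme, had 169 and 219, and EPRS1, which carries the glutamate and proline activities in 1 protein, had 162 and 156. All 3 had 0 reads in each control lane. GARS1, the glycine enzyme, had 1 read in the control lane L001, 0 in L002, and 112 and 136 in the METTL3-KD lanes, with a log2 ratio of 8.05 and an interval on read equivalents that began at -0.95. For the 26 members at 0 in the control, the lower limit of the log2 ratio on read equivalents ran from -7.97 for AIMP1 to -0.16 for IARS1. In all 34 members with reads, the interval on equivalents included no difference, under TMM as under total counts, so a difference between conditions was not detectable in any of them.

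To compare the compartments, levels were taken per length within the METTL3-KD input, the library with the larger number of read equivalents, so that scaling between libraries did not enter. Cytosolic synthetase mRNAs were more abundant than mitochondrial ones. The median was 27.2 RPKM (range 8.89 to 233) for the 19 cytosolic genes and 6.99 RPKM (range 0 to 32.7) for the 16 mitochondrial genes. The median canonical mRNA lengths were similar, 2672 and 2620 nt, whereas lengths over all annotated exons varied more between genes. Of the cytosolic genes 18 lay above 9.27 RPKM, the median of 7248 protein-coding genes with at least 10 reads, and 6 of the mitochondrial genes did. The ranges overlapped: 8 cytosolic genes lay above CARS2, the highest mitochondrial gene, and 10 mitochondrial genes lay under VARS1, the lowest cytosolic gene. After WARS1, the most abundant cytosolic mRNAs per length were those of AARS1 (61.6 RPKM), KARS1 (57.3 RPKM) and GARS1 (55.5 RPKM), whose neighbouring levels differ little beside their counting error. After CARS2 (32.7 RPKM), the most abundant mitochondrial mRNA was that of IARS2 (26.9 RPKM).

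In 17 pairings of a cytosolic with a mitochondrial enzyme for the same amino acid, the cytosolic mRNA was higher per length in 13. EPRS1 was paired with both EARS2 and PARS2, and the subunit genes FARSA and FARSB were each paired with FARS2, so the pairings are not all independent. In 12 of them the mitochondrial gene had more than 3 reads and a ratio could be given, with a median of 3.82 and a range of 0.448 to 27.1. The interval of the ratio lay above 1 in 6 pairings and under 1 in 0 pairings. These ratios divide by canonical mRNA length, 4483 nt for IARS1 and 3530 nt for IARS2. Over all annotated exons the lengths are 22418 and 4135 nt. Pair ratios per length of all annotated exons were not computed, and with them an interval could come to lie on the other side of 1 or to include it. WARS1 exceeded WARS2 by 27.1-fold (exact interval on read equivalents 7.49 to 114), AARS1 exceeded AARS2 by 11.3-fold (3.08 to 53.4) and EPRS1 exceeded EARS2 by 11.3-fold (2.30 to 85.5). LARS1 (4.52-fold over LARS2), NARS1 (4.69-fold over NARS2) and SARS1 (4.80-fold over SARS2) were the other 3, with lower limits between 1.07 and 1.09. The SARS1 ratio is uncertain, since SARS2 shares 77.5% of its mRNA length with another gene on the same strand that was also counted. For valine, cysteine, tyrosine and arginine the mitochondrial mRNA was the higher, with cytosolic to mitochondrial ratios of 0.448, 0.531, 0.711 and 0.995 and intervals that all included 1.

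**Figure D3:**
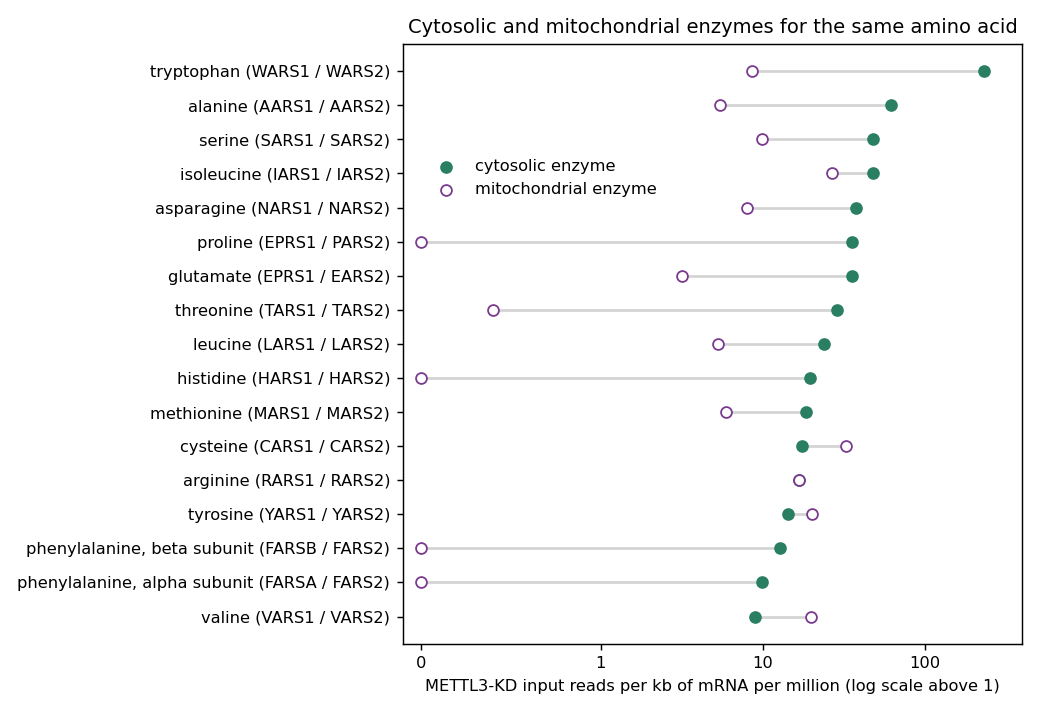
Levels in the METTL3-KD input in RPKM, on an axis that is logarithmic above 1, for cytosolic (filled) and mitochondrial (open) enzymes of the same amino acid. The cytosolic point is the higher in 13 of 17 pairings, with the widest measured gap for tryptophan (233 against 8.61).

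As a share of the reads of all 35 enzymes, the cytosolic genes took 83.2% in the METTL3-KD input (exact Clopper-Pearson interval on read equivalents 78.4% to 87.4%). In the control input they took 76.4%, from 4768 cytosolic and 1471 mitochondrial reads, with an interval of 42.8% to 94.5% because these reads amounted to only 12 equivalents. The control interval includes the METTL3-KD share, so a difference between the inputs was not detectable. In the control, 6 pairs had reads, each for 1 of its genes: the cytosolic gene for tryptophan (2228 reads), asparagine (1054), leucine (927) and tyrosine (68), and the mitochondrial gene for alanine (925) and threonine (546). Each of these control counts was at most 4.37 read equivalents against 0. WARS1 took a large part of these reads, and without it the shares were 78.3% in METTL3-KD cells and 63.3% in the control.

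The genes of the multisynthetase complex were not set apart from the free enzymes. The 7 cytosolic enzymes of the complex in the list (EPRS1, IARS1, KARS1, LARS1, MARS1, QARS1 and RARS1) had a median of 27.2 RPKM in the METTL3-KD input, and the 12 enzymes outside it had a median of 24.2 RPKM. Their ranges overlapped, from 16.7 to 57.3 RPKM and from 8.89 to 233 RPKM. The scaffold genes differed from each other, with 41.4 RPKM for AIMP2 and 4.13 RPKM for AIMP1, from 5.25 and 1.21 read equivalents. EIF2AK1, on the opposite strand, shares 44.4% of the AIMP2 mRNA length, and SARS2 shares 77.5% with another gene on the same strand. Some genes on opposite strands had the same counts: SH3BP5 and its antisense gene SH3BP5-AS1 each had 968 control and 20 METTL3-KD reads. Reads in a shared stretch may thus be counted for both genes, so the counts of AIMP2 and SARS2 are uncertain.

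To see where m6A peaks were called in these mRNAs, the peaks of each condition (q value under 0.01) were set against their exons. The control list of 2298 peaks held 13 peaks in exons of 9 members, and the METTL3-KD list of 830 peaks held 4 peaks in 3 members. Of the 37 genes 24.3% thus had a control peak, against 7.18% of all protein-coding genes, and 8.11% had a METTL3-KD peak, against 2.21%. Among genes with at least 10 METTL3-KD reads, which leaves out genes hardly expressed, the shares were 24.2% of members against 15.8% for control peaks and 9.09% against 3.77% for METTL3-KD peaks. These member shares are 8 and 3 genes. The comparison genes were not matched for level or exon length, and 18 cytosolic members lay above their median level. The shares therefore do not show that synthetase mRNAs carry more peaks than other mRNAs of like level and length. The paper also required a fold above 2 of significant peaks. That rule left out the member peaks with a pileup of 1 fragment, whose fold was just under 2. At that rule 6 members had a control peak and 1 had a METTL3-KD peak, and the shares of all genes were not computed. The 9 members with a control peak at q under 0.01 were 7 cytosolic genes (AARS1, EPRS1, IARS1, MARS1, QARS1, SARS1 and WARS1) and 2 mitochondrial genes (CARS2 and HARS2). All lanes of the control input were at 0 for MARS1, QARS1, SARS1, CARS2 and HARS2. The METTL3-KD lanes had 49 and 46 reads of MARS1, 54 and 68 of QARS1, the glutamine enzyme, 84 and 83 of SARS1, and 58 and 52 of CARS2, the mitochondrial cysteine enzyme. Of the 7 members with at least 10 reads in the control input, only WARS1 had a control peak, and 8 of the 9 members with a control peak had 0 control input reads. The control peaks of those 8 members could not be set against a control input level of their own mRNA.

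The peaks lay mostly inside coding sequence. All 10 control member peaks whose summit fell in an exon of the canonical transcript were in coding sequence, against 60.5% of all 1197 control peaks placed in the same way. Coding sequence makes up most of these mRNAs, from nt 24 to 2723 of 2797 in MARS1 and from nt 195 to 1712 of 2468 in HARS2. The part of gene structure in this difference was not tested. The control peak with the highest pileup, 4 fragments, was in MARS1, the methionine enzyme, at chr12:57910025-57910128 in exon 20 of 21. Its fold enrichment was 5.0 and its −log10 q value 13.4. Among control member peaks each pileup value had 1 fold and 1 q value, so both restate the fragment count. MARS1 had 0 control input reads, so this fold is not a measured enrichment over its own input. MARS1 had another peak at chr12:57892168-57892269 in exon 9. EPRS1 had peaks in exons 7 and 9 of 32, at chr1:220198534-220198638 and chr1:220195704-220195807, each with a pileup of 2. SARS1, the serine enzyme, had peaks in exons 3 and 9 of 11, and IARS1 had a peak in the last of its 34 exons at 98.1% of the coding sequence, also with a pileup of 2. In AARS1, QARS1 and WARS1 the pileup was 1 fragment, and in WARS1 the summit fell beside exon 9. HARS2, which had no input reads, had a peak with a pileup of 2 in exons 10 and 11 of 13 and a peak with a pileup of 1 that overlapped its 3′UTR and ZMAT2. The CARS2 peak (pileup 3) lay in an exon outside the canonical transcript that overlaps ING1, so its gene is uncertain.

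No position was shared between the peak lists in these genes. EPRS1 and IARS1 had peaks in both lists, but none of the 13 control peaks overlapped a METTL3-KD peak, and of all 2298 control peaks 0.566% did. In METTL3-KD cells EPRS1 had a peak over exon 16 of 32 and IARS1 over exon 15 of 34, both with a pileup of 1 and with summits outside the exon. With the summit required in an exon, 1 member, GARS1, had a METTL3-KD peak. GARS1 had a peak with a pileup of 1 in exon 1, shared with GARS1-DT on the opposite strand, and a peak with a pileup of 4 at chr7:30666760-30666862, outside the canonical transcript. The m6A libraries had 7920 distinct read positions in the control and 4508 in METTL3-KD cells, and the part of this difference in the number of peaks was not tested.

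**Figure D4:**
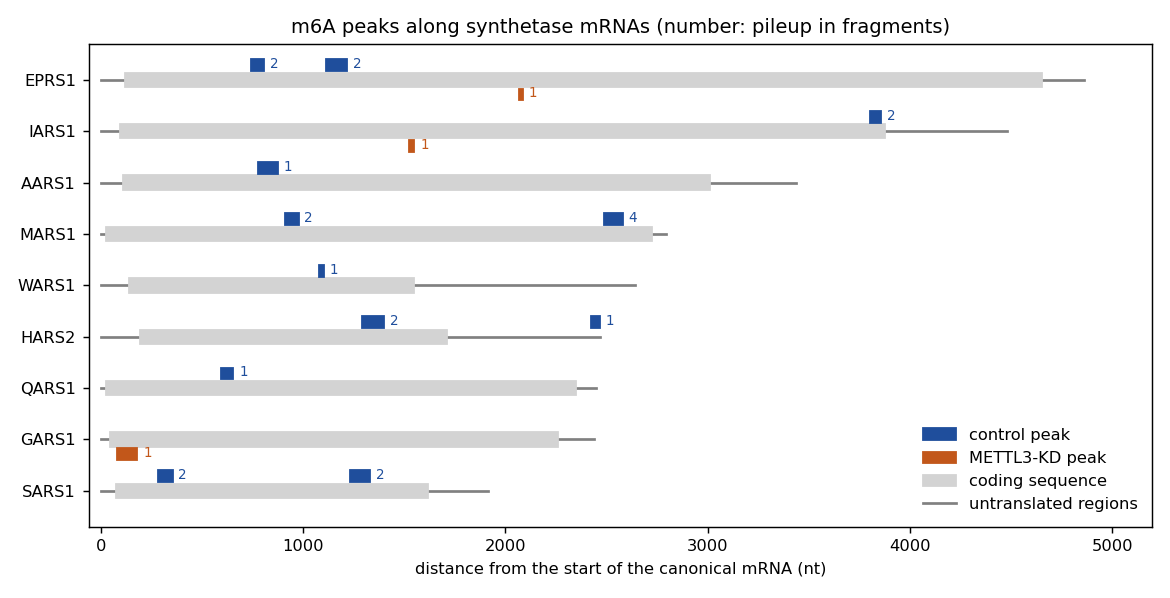
Peaks along the canonical mRNAs of the 9 members with a peak there, in nt from the mRNA start, with coding sequence as grey boxes, control peaks above (blue), METTL3-KD peaks below (orange) and the pileup in fragments beside each. Only the second HARS2 peak lies in a 3′UTR, and EPRS1 and IARS1 have peaks of both conditions at separate places.

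The letters around the summits were searched for the m6A consensus. DRACH, in which D stands for A, G or T, R for A or G and H for A, C or T, is the known consensus, with the methylated adenosine in the middle. It was searched on the strand of the gene within 50 nt of each summit, and all 13 control member peaks held it, with the nearest copy 1 to 40 nt from the summit, as did 84.8% of 1541 control peaks in protein-coding exons. Of the 4 METTL3-KD member peaks 2 held it, against 85.2% of 425 peaks. How often a window of this size holds the motif where there is no peak was not computed, so these shares do not show enrichment of the motif. Near matches are shown so that the motif can be read in its mRNA. Windows of 29 bases around the nearest motif are printed 5′ to 3′ in mRNA sense for the 6 control peaks with a motif within 20 nt of the summit and the whole window inside 1 canonical exon, with the motif in capitals, from the GRCh37 (hg19) genome.
MARS1, exon 20, chr12:57910047-57910075, plus strand: cagcagttgtagAGACTgttacaacagcc
MARS1, exon 9, chr12:57892212-57892240, plus strand: cctccgccagtgGAACAccctctatctgt
EPRS1, exon 9, chr1:220195750-220195778, minus strand: tgacatgagtagTAACAatggatgcatga
AARS1, exon 6, chr16:70304185-70304213, minus strand: caagaaaagcatTGACAcagggatgggcc
QARS1, exon 7, chr3:49139660-49139688, minus strand: ctcggctagaagAAACAgaccggaggacg
HARS2, exon 10, chr5:140076926-140076954, plus strand: gtgccatgtgtgGGACTcagcattggggt
These 6 peaks were chosen for a near motif. In HARS2 and AARS1 the central adenosine lay 1 nt from the summit. Only the HARS2 window holds GGACT. A match describes these letters and does not show that the adenosine was methylated.

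Genes that work beside the synthetases were counted in the same way. Of 18 genes of tRNA charging and handling outside the list, 10 had at least 10 reads, of which 8 lay above 2. The gene with most reads was AARSD1, an alanyl-tRNA editing gene with 1025 control and 0 METTL3-KD reads. Of 16 genes of amino acid supply and the integrated stress response, a pathway known to raise synthetase transcription, 14 were tested and 13 lay above 2, all with 0 control reads. Of all genes tested 79.1% lay above 2, and 93.9% of those had 0 control reads. ATF4, the transcription factor of that response, had 0 control and 252 METTL3-KD reads. SLC7A5, an amino acid transporter gene, was the exception, with 1617 control and 251 METTL3-KD reads and a log2 ratio of -0.49.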

How the data were processed

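MIAPaCa-2 inputs and m6A libraries were grouped by sample title. The authors removed rRNA reads with Bowtie2, aligned to hg19 with HISAT2 and deposited raw counts per Ensembl gene from featureCounts, whose strand setting and annotation are not given in the sources used here. Lanes L001 and L002 were read as lanes of 1 library and summed. Log2 ratios of all genes used edgeR 4.0.16 with TMM scaling over the whole table, a prior count of 2 and a minimum of 10 reads over both inputs. On simulated counts of 1871 genes, with 200 genes changed by 3 on the log2 scale, 100 raised and 99 lowered genes passed 2. The simulation drew independent reads for genes with at least 10 reads in each input. It checks the calculation only and does not cover genes at 0 or reads that come in clusters, as they did here. The lower mode came from a density of reads per gene. RPKM used canonical transcript lengths of GENCODE 44 on GRCh37, the same build. The authors called peaks on pooled lanes with MACS2 2.1.1. The deposited pileup is a signal in fragments after removal of duplicates, the deposited fold is a ratio to local background, and the deposited −log10 column holds q values. The file headers give a cut-off of 0.05 and the methods 0.01, which was used. A peak was assigned to a gene by 1 bp of exon overlap. Members and lists were chosen with earlier results of these data known. Members with at least 10 control reads, the 3 with most METTL3-KD reads among those at 0 in the control, and members with a peak are named with their reads in every lane. Intervals on read equivalents for members at 0 in the control were added after the values were seen. A value of 1 gene that this rule names is not reported here.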

Additional observations from a re-analysis of the deposited data

How the results depend on the processing

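There was 1 library per condition, and total reads did not follow the number of distinct read positions. The control input, with more reads, had 9291 distinct read positions against 52141 in METTL3-KD cells and about 12 read equivalents over all synthetases. Molecules were not counted, and the source of the clustering of reads was not tested. Of 93 alternative values, 68 were classed as the same as the main value and 25 as moved. The cause of a move was not tested except where named. Counts of members had no range, so some that fell were still classed as the same. Members above 2 fell from 28 to 20 with a minimum of 50 reads, where fewer members were tested. Members with a control peak fell from 9 to 6 with q under 0.001 and with a fold above 2. Dividing reads by the lower mode, members above 2 numbered 6 and those under -2 numbered 0, and the medians were 1.36 (cytosolic) and 0.95 (mitochondrial), since the prior count of 2 then exceeds most control values. The members under -2 numbered 1, TARS2, with DESeq2 size factors and with a prior count of 10. With each lane left out in turn they numbered 1 to 2, with TARS2 in each and AARS2 only without METTL3-KD lane L001. A prior count of 0.5 gave medians of 8.92 (cytosolic) and 7.94 (mitochondrial), and 10 gave 3.73 for the mitochondrial genes. Total counts gave 4.97 for the mitochondrial genes. With each lane left out in turn the mitochondrial median ran from 5.35 to 5.88. With lanes as replicates and the lane as a replicate block, 28 members lay above 2 and 1 under -2, with a mitochondrial median of 5.14, and the same values were found without the replicate block (28, 1 and 5.14). The cytosolic share of METTL3-KD reads was 61.3% when members were counted as present or absent, and 78.3% without WARS1, an alternative chosen after seeing the data. The members with a METTL3-KD peak fell to 1, GARS1, with q under 0.001, with a fold above 2, with the summit in an exon and with 50% of the peak in an exon.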
